A study of Mus musculus with 4 samples.

Results

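The peaks described here were those that overlapped a transcription start site (TSS) in a chromatin immunoprecipitation sequencing (ChIP-Seq) data set for PRDM6 in mouse outflow tract smooth muscle cells (SMCs). They were the peaks that the authors' annotation placed in the promoter class at a distance of 0 bp from the TSS of the assigned gene, and they numbered 928 of 13977 matched peaks. The rule used position only. The series comprised 4 samples, 2 of the PRDM6 ChIP group and 2 of the Input group, and the deposited list held the peaks that both PRDM6 ChIP libraries shared. Cells of both groups came from the outflow tract of mouse embryos whose Prdm6 alleles carried loxP sites, were grown in culture and were infected with a lentivirus that overexpressed FLAG-tagged PRDM6. The PRDM6 ChIP libraries were made with an anti-FLAG antibody, so they recorded the tagged protein at the level the virus gave, while the Input libraries skipped the precipitation and entered these data through the peak calls alone. The methods and the results of the study give different embryonic ages for the cells, and they describe the replicates as independent in one place and as precipitations from a single sample in another. Agreement between the libraries may therefore be technical. No expression data belonged to these samples, so marker genes could not be looked at here. The methods of the study state that nearly all of the cultured cells were positive for smooth muscle actin and calponin.

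The TSS is the base at which RNA polymerase II begins a transcript, and the sequence around it is the core promoter. Many mouse promoters lie in CpG islands, stretches rich in GC bases and in CpG dinucleotides that usually stay unmethylated and that serve housekeeping and developmental genes, whereas others lie in CpG-poor sequence and often belong to genes with tissue-restricted or inducible expression. PRDM6, expressed in SMCs, belongs to the PR domain proteins and carries zinc fingers, and the study asked where on the genome it was found, naming the AP-1 motif, the TEAD motif and a T-rich sequence in its peaks. AP-1 is a dimer of FOS and JUN proteins, and TEAD factors bind DNA for the coactivators of the Hippo pathway.

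Peaks at a TSS were of 2 kinds of sequence, and both are shown here before their values. The strength of a peak is given throughout as the −log10 p-value of the peak caller in each replicate. Replicates are named by their order in the list, first-listed and second-listed, since nothing there ties them to a library, and the score is the authors' scaled global irreproducible discovery rate (IDR), where 540 stands for a global IDR of 0.05, 830 for 0.01 and 1000 is the highest. Of the 25 TSS peaks at a global IDR of at most 0.05, 9 carried AP-1 or TEAD letters no more than 100 bp from their summit, and these genes were named after their values were seen. Over all 928 TSS peaks such letters were found in 100 (10.8%), and of the 440 other peaks passing the same limit 25.7% held the AP-1 and 11.6% the TEAD motif. Sequences are from the mm10 (GRCm38) reference, on the strand of the gene and 5′ to 3′. Capitals mark the motif, which was TGACTCA or TGAGTCA for AP-1, and AGGAATGC, AGGAATGT, GGGAATGC or GGGAATGT for TEAD, on either strand. The AP-1 motif stood, among others, at the peaks of Olr1, Snord123 and Ccser2, and the first of these is shown with its promoter below.
Snord123, chr15:32241828-32241888, minus strand: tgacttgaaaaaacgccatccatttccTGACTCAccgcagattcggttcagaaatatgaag
Ccser2, chr14:36885933-36885993, minus strand: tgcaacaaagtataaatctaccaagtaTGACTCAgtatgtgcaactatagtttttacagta
The TEAD motif stood at the peaks of Abca9, Pex19, Fndc7, Gm16364 and Col3a1. The peak of Abca9 held it at 2 places, both in an intron of Abca9.
Abca9, chr11:110167653-110167714, minus strand: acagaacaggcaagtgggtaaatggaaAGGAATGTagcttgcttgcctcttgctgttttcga
Abca9, chr11:110167540-110167601, minus strand: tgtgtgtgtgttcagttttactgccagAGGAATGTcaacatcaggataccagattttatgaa
Pex19, chr1:172133786-172133847, plus strand: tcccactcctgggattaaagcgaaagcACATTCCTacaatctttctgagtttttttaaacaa
Fndc7, chr3:108858543-108858604, minus strand: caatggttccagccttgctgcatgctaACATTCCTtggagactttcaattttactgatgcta
Gm16364, chr10:39613878-39613939, minus strand: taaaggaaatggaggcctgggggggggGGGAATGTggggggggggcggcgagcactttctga
Col3a1, chr1:45311342-45311403, plus strand: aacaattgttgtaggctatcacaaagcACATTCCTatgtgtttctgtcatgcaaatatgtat
The AP-1 motif of Snord123 lay 62 to 68 bp downstream of its TSS, in the snoRNA and in an intron of its host transcript Snhg18. That of Ccser2 lay 394 to 400 bp downstream of the start of a retained-intron transcript, 67 bp from the summit of the second-listed replicate but 233 bp from that of the first-listed. The TEAD motif of Pex19 lay 147 to 140 bp upstream of the TSS and in an intron of a longer Pex19 transcript, and that of Col3a1 lay 169 to 162 bp upstream, outside annotated transcripts. That of Fndc7 lay 20 bp from the matched summit but 112 and 158 bp from the summits of the replicates. At Col3a1 the summit of the first-listed replicate was 57 bp from the motif and that of the second-listed replicate 2123 bp from it.

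Promoter sequences, the 250 bases before the TSS in RefSeq (GRCm38), are shown for 5 genes whose TSS lay in such a peak and which the results below refer to. Here capitals mark the AP-1 and TEAD motifs, the GC box GGGCGG, the CCAAT box (CCAAT followed by CA, CG, GA or GG), the ETS motif CCGGAAGT, the NRF1 motif GCATGCGC, the YY1 motif AAGATGGC, the CRE TGACGTCA and the CArG box, on either strand, and a TATAAA that lay 20 to 40 bp upstream of the TSS. CRE and AP-1 are different letters and did not overlap. Olr1 and Il6 have CpG-poor promoters and an AP-1 motif each. Sgk1 and Ccn1, immediate early genes, have a TEAD motif and at least 1 GC box, and Twist1, a mesenchymal transcription factor, has a GC box and a CCAAT box in CpG-rich sequence.
Olr1, chr6:129507166-129507415, minus strand: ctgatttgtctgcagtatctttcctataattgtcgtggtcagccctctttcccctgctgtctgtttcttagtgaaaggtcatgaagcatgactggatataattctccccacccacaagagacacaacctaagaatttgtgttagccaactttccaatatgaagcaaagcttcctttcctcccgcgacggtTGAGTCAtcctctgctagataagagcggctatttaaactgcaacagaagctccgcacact
Il6, chr5:30012864-30013113, plus strand: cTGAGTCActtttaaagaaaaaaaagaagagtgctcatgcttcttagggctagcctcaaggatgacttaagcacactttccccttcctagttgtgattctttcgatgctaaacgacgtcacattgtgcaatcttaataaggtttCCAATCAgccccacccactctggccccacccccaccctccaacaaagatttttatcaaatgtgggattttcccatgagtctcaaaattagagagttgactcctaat
Sgk1, chr10:21993640-21993889, plus strand: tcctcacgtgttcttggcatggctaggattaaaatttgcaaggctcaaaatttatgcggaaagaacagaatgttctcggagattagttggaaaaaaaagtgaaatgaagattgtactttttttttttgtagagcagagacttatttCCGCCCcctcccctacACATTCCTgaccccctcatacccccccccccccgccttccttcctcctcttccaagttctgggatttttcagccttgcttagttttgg
Ccn1, chr3:145649986-145650235, minus strand: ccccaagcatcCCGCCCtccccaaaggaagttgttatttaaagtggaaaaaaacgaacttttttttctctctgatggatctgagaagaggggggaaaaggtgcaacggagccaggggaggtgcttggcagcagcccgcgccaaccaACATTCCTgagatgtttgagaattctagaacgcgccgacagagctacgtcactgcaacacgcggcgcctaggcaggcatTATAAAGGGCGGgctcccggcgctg
Twist1, chr12:33957421-33957670, plus strand: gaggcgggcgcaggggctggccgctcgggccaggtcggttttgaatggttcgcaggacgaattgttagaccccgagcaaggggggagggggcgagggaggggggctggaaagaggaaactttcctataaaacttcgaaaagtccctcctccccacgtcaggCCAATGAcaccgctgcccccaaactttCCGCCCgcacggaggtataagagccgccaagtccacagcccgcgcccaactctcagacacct
The AP-1 motif of Olr1 lay 60 to 54 bp upstream of the TSS, 58 bp from the first-listed and 53 bp from the second-listed summit. The AP-1 motif of Il6 lay 249 to 243 bp upstream, more than 100 bp from the summit at 90 bp upstream, so it was not counted among the motifs at summits. The TEAD motif of Sgk1 lay 88 to 81 bp upstream, while the summit of its peak was 258 bp upstream, and that of Ccn1 104 to 97 bp upstream, and Ccn1 also had a TATA box at 25 to 20 bp upstream that ran into a GC box. A match of letters is a description and not a site. Of all 32585 RefSeq promoters of 300 bases (250 before and 50 after the TSS), 5.23% held the AP-1 motif, 4.25% the TEAD motif, 35.9% a GC box, 17.2% a CCAAT box, 1.64% a CArG box, 1.80% a CRE, 3.92% the ETS, 2.71% the NRF1 and 2.75% the YY1 motif, and 1.93% a TATA box.

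To find whether peaks at a TSS were reproduced more or less often than others, their IDR was compared. Of the 928 TSS peaks, 25 (2.69%, 95% Wilson interval 1.83% to 3.95%) passed a global IDR of 0.05, where the background over all 13977 peaks was 3.33%. At the stricter limit of 0.01 there were 8 (0.862%, 0.437% to 1.69%), where the background was 0.994%. Against all 13049 other peaks, of which 3.37% passed the limit of 0.05, the difference was -0.678 percentage points (95% interval -1.60 to 0.609) and did not pass the test (two-sided Fisher's exact test, adjusted p = 0.347 over 7 measures). When the class was taken instead as the 748 peaks with a summit within 250 bp of a TSS, 1.74% passed the limit against 3.42% of the others (exact p = 0.0114, not adjusted), and within 500 bp it was 1.91% against 3.46% (exact p = 0.00314). The share of TSS peaks did not differ by the test from the 1139 promoter peaks just downstream (1.93%, adjusted exact p = 0.349; interval of the difference -0.540 to 2.17 points) or the 909 just upstream (2.42%, adjusted exact p = 0.993; -1.22 to 1.77 points). The intervals and tests on shares cover counting error over peaks only, since peaks are not replicates of the experiment.

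The 8 TSS peaks at a global IDR of at most 0.01 were those of Abca9, Cep112, Pex19, Olr1, Fndc7, Adpgk, Tmbim1 and Rhobtb3. The peak of Abca9, a transporter of the ABC family, at chr11:110167168-110168522 had −log10 p-values of 23.2 and 24.3 in the first-listed and second-listed replicates and a score of 1000. That of Cep112, a centrosomal protein, lay on the same chromosome at chr11:108752088-108752687 with values of 23.2 and 22.8. That of Pex19, which carries membrane proteins to peroxisomes, had 19.9 and 22.1 at chr1:172133363-172134396. In these 3 peaks both replicates were high and close together. The peak of Olr1, the receptor for oxidized low-density lipoprotein, had 17.9 and 18.8 at chr6:129506997-129508022, with a summit 2 bp downstream of the principal TSS. Fndc7 had 16.8 in both replicates. Adpgk, an ADP-dependent glucokinase, had 15.9 and 17.8, and Tmbim1 had 15.8 and 18.8. The peak of Rhobtb3 at chr13:75943787-75944936 had 14.9 and 22.1 and was the one of these 8 in CpG-rich sequence. At Cep112, Pex19, Fndc7 and Adpgk the annotated TSS was that of a transcript outside the basic gene set (a retained intron at Pex19, a processed transcript at Fndc7 and Adpgk, a protein-coding transcript at Cep112), so at 4 of the 8 the start was not a principal one of the gene.

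The rest of the 15 highest TSS peaks included those of Snord123 (15.6 as the smaller of both replicates, which the list takes as the value of the matched peak), Ccn4 (14.3), Casp12, Col5a2 and Gm16364 (13.9 each) and Gm19705 (13). Ccn4 encodes a matricellular protein of the CCN family and Col5a2 a chain of type V collagen, and both had their peak at a principal start. Gm16364 and Gm19705 are noncoding. Replicates differed at several of these peaks. Gm19705 had 19.9 in the first-listed and 13 in the second-listed replicate, whereas Ccn4 had 14.3 and 19.9 and Gm16364 13.9 and 19.9. The other members with a global IDR of at most 0.05, named after their values were seen, were Ccdc80, Il6, Ccser2, Rab32, Nfkbiz, Jarid2, Col3a1, Ogn, Mir100hg and Dtnb. Il6, the cytokine interleukin 6, had 16.8 and 12.8 at chr5:30012201-30013526, and Nfkbiz, an inducible nuclear regulator of NF-kappaB, had 12 and 14.7 at chr16:55838545-55839330.

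The strength of TSS peaks was close to that of the list as a whole in one replicate and lower in the other. Of the TSS peaks, 440 (47.4%, 44.2% to 50.6%) had a −log10 p-value above the list median of 5.53, against 49.9% of all other peaks (difference -2.44 points, -5.75 to 0.885; adjusted exact p = 0.215, Fisher's exact test). In the first-listed replicate 37.3% of TSS peaks lay above the median of that replicate against 45% of the others (adjusted exact p = 1.58e-05), and in the second-listed replicate 47.8% did against 44.7% (adjusted exact p = 0.138), a difference in the opposite direction. Over all peaks these shares were 44.5% and 44.9%, below 50% because many peaks shared the median value. Only 43.5% of TSS peaks (404 of 928) had a higher value in the first-listed than in the second-listed replicate, against 52.7% of the others (adjusted exact p = 2.44e-07 over 4 comparisons). Compared with promoter peaks just downstream, TSS peaks were more often above the list median (47.4% against 41.4%, adjusted exact p = 0.0115) and less often at the lowest score of 48 (44.2% against 51.5%, adjusted exact p = 0.00211). Against promoter peaks just upstream neither measure passed the test (adjusted exact p = 0.993 for both).

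TSS peaks were wide, with a median of 705 bp (quartiles 458 and 1145 bp) against 592 bp for all others. A wide peak overlaps a TSS more easily, so width is tied to the rule and was not tested. Among peaks at least as wide as the list median of 600 bp, 54.4% of TSS peaks were above the median −log10 p-value against 61.6% of the others (exact p = 0.000828, not adjusted), and among narrower ones 36.8% against 38.4% (exact p = 0.545). All 25 TSS peaks at a global IDR of at most 0.05 were at least as wide as the list median (25 of 561, 4.46%, against 6.01% of the others of that width, exact p = 0.160). The widest were at a collagen gene and the gene of a transcriptional cofactor. The peak of Col3a1, which encodes the chain of type III collagen, covered 5966 bp at chr1:45308962-45314927 and had 21 and 11.8. That of Zfpm2, a cofactor of GATA factors, covered 5788 bp and had 13.9 and 8.19. In both of these the first-listed replicate was the higher.

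Peaks whose TSS lay close to their edge were compared with those that just missed one, as a description. In 101 TSS peaks the TSS lay within 25 bp of an edge, and their median −log10 p-value was 5.14 with a range of 3.19 to 9.81. In 60 promoter peaks outside the class the nearest edge was within 25 bp of the TSS, with a median of 5.12 and a range of 3.09 to 10.2. The peak of Htra1, with 8.52 and 17.8, ended on its TSS, and that of Adamts10, with 6.15 and 12.8, missed its TSS by 1 bp.

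The sequence at the summits of TSS peaks was unlike that of other peaks. CpG-rich sequence, defined on the 500 bp around the summit as a GC content of at least 50% with an observed to expected CpG ratio of at least 0.6, was found at 471 TSS peaks (50.8%, 47.5% to 54.0%) against 3.36% of all other peaks, a difference of 47.4 points (44.2 to 50.6). The share was 19% just downstream (adjusted exact p = 3.00e-52, Fisher's exact test), 17.4% just upstream (adjusted exact p = 6.50e-52) and 0.582% outside promoters. The class was chosen for lying on a TSS, and many promoters lie in CpG islands. Higher shares of CpG-rich sequence and of the GC box than in other peaks therefore follow largely from the rule. These tests cannot show a preference of PRDM6. Over all RefSeq promoters, counted around the TSS and not the summit, 33.7% were CpG-rich and 35.9% held a GC box. The GC box is the motif of SP and KLF factors. It lay within 100 bp of the summit in 33.3% of TSS peaks against 4.98% of all others (adjusted exact p = 1.33e-140 over 10 motifs). Motifs of core promoters that were rarer still stood more often at TSS peaks, with the ETS motif at 1.19% against 0.230% (adjusted exact p = 0.000104), the CRE at 0.970% against 0.238% (adjusted exact p = 0.00169) and the NRF1 motif at 0.647% against 0.176% (adjusted exact p = 0.0153). These rest on 11, 9 and 6 TSS peaks, and none of the 3 passed the test against promoter peaks just downstream (adjusted exact p = 0.0704, 0.0715 and 0.777) or just upstream (adjusted exact p = 0.348, 0.528 and 0.563). Within CpG-rich peaks alone these last 3 differences did not pass the test, while that of the GC box did (55.8% against 45.4%, exact p = 0.00182, not adjusted). The CCAAT box (6.47% against 5.65%, adjusted exact p = 0.318) and the YY1 motif (1.40% against 1.04%, adjusted exact p = 0.318) did not differ by the test.

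The AP-1 and TEAD motifs, and letters chosen here to stand for the T-rich sequence, were found less often at TSS peaks than at all others, a direction that for TEAD turned among the peaks passing a global IDR of 0.05 (5 of 25, 20%, against 11.6%, exact p = 0.207), where AP-1 and the T-rich letters did not pass the test either. The AP-1 motif was found in 64 TSS peaks (6.90%, 5.44% to 8.71%) against 14.8% of all others (adjusted exact p = 2.12e-12), the TEAD motif in 39 (4.2%, 3.09% to 5.69%) against 7.68% (adjusted exact p = 0.000104), and TTTCAT or TTTCCT, 1 reading of the T-rich sequence, written TTTCMT in the plots, in 250 (26.9%, 24.2% to 29.9%) against 44.2% (adjusted exact p = 3.66e-25). With TTTCT or TTTAT, another reading of that sequence added after the data were seen, the shares were 59.3% and 84.5% (exact p = 2.14e-69, not adjusted). The CArG box, the site of serum response factor, was found in 7 (0.754%) against 1.46% (adjusted exact p = 0.104). Against promoter peaks just downstream, of which 7.90% held it, the AP-1 share did not differ by the test (adjusted exact p = 0.445; difference -1.01 points, -3.25 to 1.3), while against those just upstream (10.3%) it was lower (adjusted exact p = 0.0243). Base composition moved with these differences. Among peaks in CpG-rich sequence, 3.18% of TSS peaks and 4.11% of the others held an AP-1 motif (exact p = 0.482), and among peaks in other sequence 10.7% and 15.2% (exact p = 0.00762, both not adjusted). For TEAD the difference passed the test in neither class (exact p = 0.108 and exact p = 0.153). Only 3 TSS peaks, those of Gm11715, Ptk2 and Sprr2k, held both an AP-1 and a TEAD motif, and no TSS peak at a global IDR of at most 0.05 did. In 327 TSS peaks (35.2%) none of the 10 motifs was found.

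**Figure D1:**
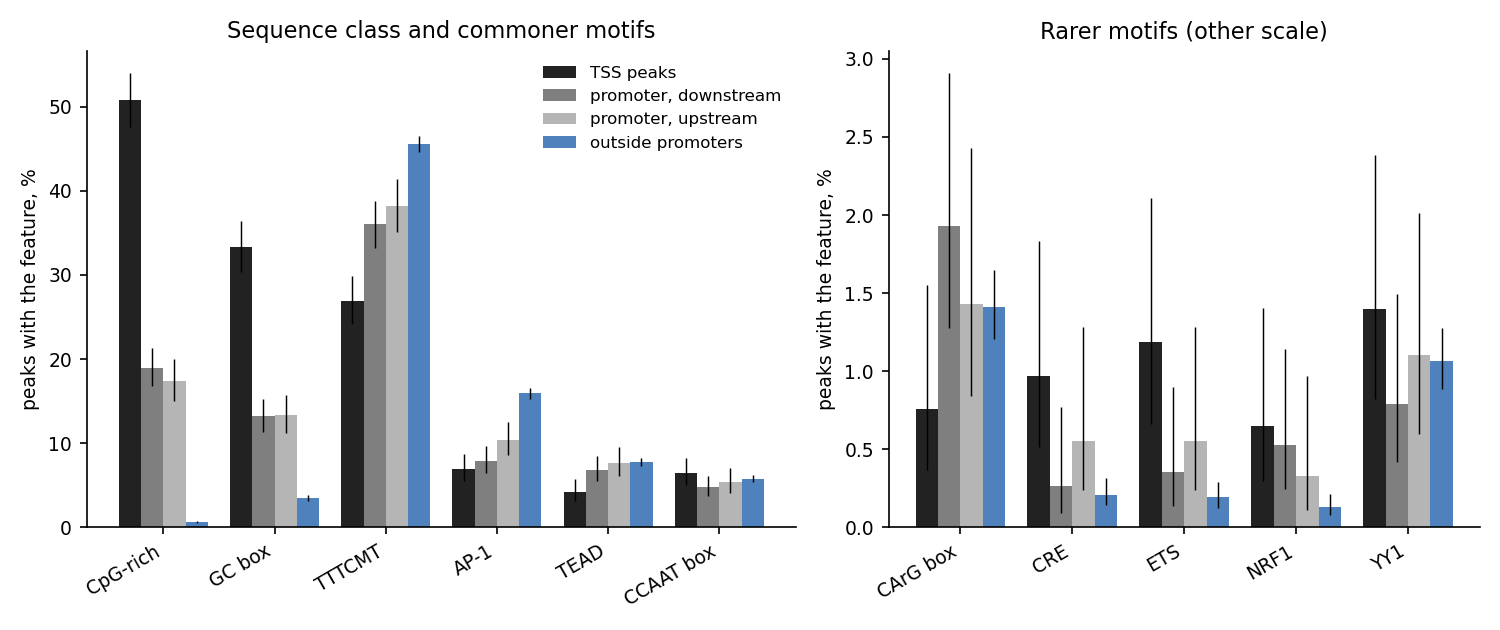
Share of peaks, in percent, whose summit lay in CpG-rich sequence (500 bp) or had a motif within 100 bp, for 928 TSS peaks, 1139 promoter peaks just downstream, 909 just upstream and 11001 outside promoters. Bars start at 0 and lines are 95% Wilson intervals over peaks. TSS peaks were at 50.8% for CpG-rich sequence and 33.3% for the GC box, and at 6.90% for AP-1 where peaks outside promoters were at 15.9%.

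TSS peaks also varied among themselves by this sequence class. CpG-rich TSS peaks passed a global IDR of 0.05 in 3 of 471 cases (0.637%), which were those of Rhobtb3, Rab32 and Nfkbiz, and TSS peaks in other sequence in 22 of 457 (4.81%), a difference of -4.18 points (-6.58 to -2.15; adjusted exact p = 8.76e-05, Fisher's exact test). The lowest score was held by 53.3% of the CpG-rich and 34.8% of the other TSS peaks (adjusted exact p = 5.24e-08). In the first-listed replicate 25.9% of the CpG-rich and 49.0% of the other TSS peaks lay above the median of the replicate (adjusted exact p = 1.77e-12), and in the second-listed replicate 41.4% and 54.5% (adjusted exact p = 9.47e-05), so both replicates had the same direction. For the matched value the shares were 40.6% and 54.5% (adjusted exact p = 5.04e-05). At principal starts alone, a restriction added after the data were seen, the matched value no longer differed by the test (44.6% of 298 CpG-rich and 47.4% of 209 other peaks, exact p = 0.587), while the IDR did (1.01% and 5.26%, exact p = 0.00516). The first-listed replicate was the higher in 37.8% of CpG-rich and 49.5% of other TSS peaks (adjusted exact p = 0.000705), and whether base composition affected the libraries differently was not tested. CpG-rich TSS peaks were also narrower, with a median of 580 bp against 875 bp.

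**Figure D2:**
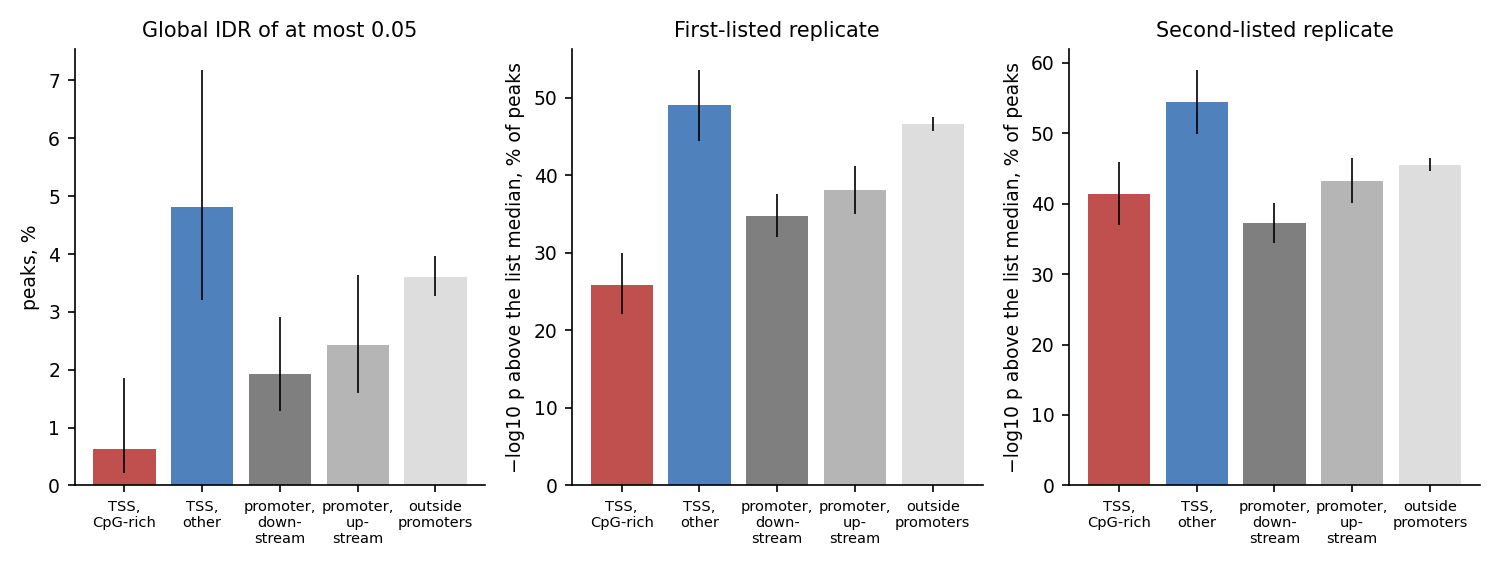
Share of peaks, in percent, with a global IDR of at most 0.05 (left), and with a −log10 p-value above the list median in the first-listed (centre) and second-listed (right) replicate, for CpG-rich and other TSS peaks and 3 classes of other peaks. Lines are 95% Wilson intervals over peaks and the panels have different scales. CpG-rich TSS peaks were at 0.637%, 25.9% and 41.4%, and other TSS peaks at 4.81%, 49.0% and 54.5%.

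Several motifs differed by the same division. The AP-1 motif was in 15 CpG-rich TSS peaks (3.18%) and 49 others (10.7%, adjusted exact p = 2.19e-05), the TEAD motif in 12 (2.55%) and 27 (5.91%, adjusted exact p = 0.0223), and TTTCAT or TTTCCT in 16.8% and 37.4% (adjusted exact p = 6.47e-12). The GC box was in 55.8% and 10.1% (adjusted exact p = 8.66e-52). Its letters are all G or C and hold a CpG, so this difference follows largely from how the classes were defined. The YY1 motif was in 12 CpG-rich TSS peaks and 1 other (adjusted exact p = 0.00815), and the ETS motif in 10 and 1 (adjusted exact p = 0.0223). The CCAAT box, in 4.88% and 8.10%, leaned the other way and did not differ by the test (adjusted exact p = 0.0869). Neither did the CArG box, the NRF1 motif or the CRE.

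The replicates ranked the TSS peaks with little agreement. Across the 928 peaks their −log10 p-values had a Spearman correlation of 0.248, and across all other peaks 0.265. It was 0.209 in CpG-rich and 0.246 in other TSS peaks. These correlations are across peaks that share 2 libraries and were all called in both, and they are given as a description. The median distance between replicate summits was 159 bp at TSS peaks and 119 bp at others, a distance that peak width bounds. Split at the list median width after the data were seen, it was 86 and 77 bp in narrower and 220 and 204 bp in wider peaks, with no test. Heights could be read back from many p-values. For the first-listed replicate 57.7% of TSS peaks had a value that a Poisson background with a mean of 2.61 fragments gives, and in the second-listed replicate 65.5% had one that a mean of 2.39 gives, within 0.0002. For these the height was a median of 13 fragments (quartiles 12 and 16) and 14 fragments (12 and 16). Heights of the rest could not be read back.

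**Figure D3:**
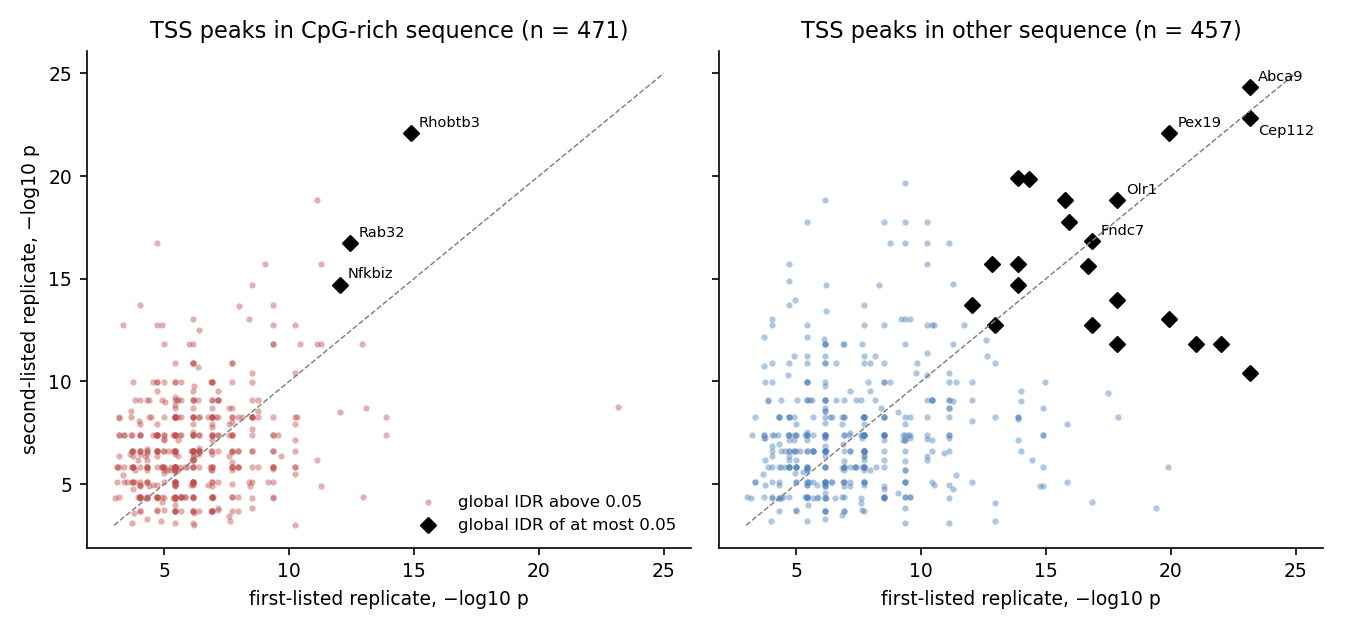
Each point is a TSS peak, with its −log10 p-value in the first-listed replicate on the horizontal and in the second-listed replicate on the vertical axis, for 471 peaks in CpG-rich (left) and 457 in other sequence (right). Black diamonds have a global IDR of at most 0.05 (3 and 22 peaks), and the dashed line marks equal values. Most points of both panels lie low and spread on either side of the line.

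The position of the summit relative to the TSS was then examined. Of the 928 summits, 624 (67.2%) lay within 250 bp of the TSS and 279 (30.1%) within 100 bp. The rule asks that the peak hold the TSS, so this closeness is bounded by peak width. Within 250 bp lay 94.3% of summits in peaks narrower than the list median and 49.6% in the wider ones. Summits lay downstream in 521 peaks, upstream in 404 and on the TSS in 3, a downstream share of 56.3% (53.1% to 59.5%; exact two-sided binomial test, p = 0.000134). In each replicate alone the counts were 511 downstream and 417 upstream (55.1%, exact p = 0.00225). The centres of the peaks lay downstream in 548 and upstream in 379 (59.1%, exact two-sided binomial test, p = 3.15e-08). A downstream excess was thus not particular to the summits. Both replicates had their summit downstream in 395 peaks and upstream in 301, and in the other 232 the summits were not on one side. The downstream share rested on part of the peaks. Where the replicate summits lay within 100 bp of each other it was 49.7% (177 of 356) and where they were farther apart 60.5% (Fisher's exact test of the difference, adjusted exact p = 0.00512 over 3 comparisons added after the data were seen). It was 60.9% for genes on the plus strand and 51.8% for genes on the minus strand (adjusted exact p = 0.00654), and 60.8% in CpG-rich and 51.8% in other sequence (adjusted exact p = 0.00654). What set the strands apart was not tested. The 50-bp bins with the most summits lay 100 to 150 bp downstream (91 peaks) for the matched peak, 50 to 100 bp downstream (82) for the first-listed and just upstream of the TSS (82) for the second-listed replicate. The matched summit was midway between the replicate summits, to within 1 bp, in 72.7% of TSS peaks, so it need not be a maximum in either.

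**Figure D4:**
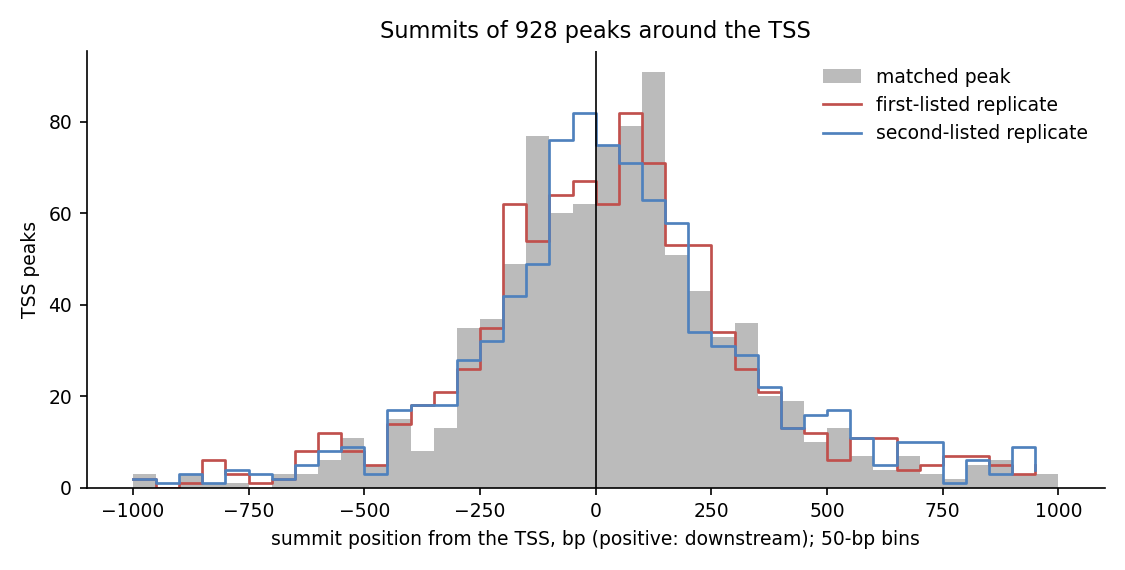
Number of TSS peaks by the position of their summit from the TSS in bins of 50 bp, with positive values downstream in the direction of transcription; summits beyond 1000 bp are not drawn. Grey bars are the matched peaks, and the outlines are the summits of each replicate. The matched summits peaked in the bin 100 to 150 bp downstream, and the replicates did not share their highest bin. Every peak drawn holds its TSS by the rule, which bounds these positions.

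The starts themselves were of several kinds. In GENCODE M21, 507 TSS peaks (54.6%) overlapped the principal start of a gene, 197 (21.2%) another start of the basic set and 224 (24.1%) only a start outside that set, by the transcript that the authors' annotation assigned. For 210 of the last the gene had a principal start, and the assigned one was a median of 1758 bp downstream of it, with 120 more than 1000 bp downstream. By type, 644 transcripts were protein-coding, 91 processed transcripts, 76 retained introns, 34 subject to nonsense-mediated decay, 30 lincRNAs, 28 antisense and 11 microRNAs, whose annotated start is that of the hairpin, and 3 could not be found in the gene set. CpG-rich sequence was found at 58.8% of peaks on principal starts and 33.5% of those on starts outside the basic set (adjusted exact p = 2.05e-09), and the GC box at 37.9% and 21.9% (adjusted exact p = 0.000186). The share with a global IDR of at most 0.05 (2.76% and 3.12%, adjusted exact p = 0.872; difference -0.364 points, -3.74 to 2.06) and the AP-1 share (5.13% and 8.93%, adjusted exact p = 0.339) did not differ by the test. In 65 TSS peaks (7.0%) starts of 2 or more genes lay in the peak, and in 8 these were coding genes on opposite strands. The rule also missed 163 peaks that held a basic start of some gene.

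Set against all promoters, those with a TSS peak were more often CpG-rich. Of the 853 gene symbols with a TSS peak, 649 were in the RefSeq promoter table, and 513 of its 32585 starts (1.57%) lay in a TSS peak. A TSS peak lay on 320 of 10973 CpG-rich promoters (2.92%) and on 193 of 21612 others (0.893%), here with the class taken on the 300 bases of the promoter. The CpG-rich share was thus 62.4% (58.1% to 66.5%) among promoters with a TSS peak and 33.7% among all. A TATA box was found in 20 promoters with a TSS peak (3.90%, 2.54% to 5.94%) against 1.93% of all, among them those of Ccn1, Vim, Anxa1, Palld, Postn and Gadd45g, which are named as examples. The AP-1 motif was in 8.58% (6.45% to 11.3%) of promoters with a TSS peak, the TEAD motif in 7.60% (5.61% to 10.2%) and the GC box in 59.8%, each above the shares over all promoters given above, and the CCAAT box (12.9%, 10.2% to 16%) and the YY1 motif (1.17%, 0.537% to 2.53%) were below. The ETS motif, found more often at the summits of TSS peaks than of others, was in 3.51% (2.23% to 5.48%) of promoters with a TSS peak and 3.92% of all. These shares are descriptions with no test.

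Of the 853 genes with a TSS peak, 789 had 1, 58 had 2 and 6 had 3 or more. The noncoding Mir100hg and the transcription factor gene Tcf4 had 5 each and Foxp1 had 4, and Meis1, Zbtb20 and Glis3 had 3 each. In 630 of these genes (73.9%) further peaks lay elsewhere, with a median of 3, and the genes with a TSS peak were 16.3% of the 5246 genes assigned to any peak. The TSS peak was the strongest peak in 170 of the 630 genes (27%), and a further peak was stronger in 448. Among the 156 genes with 1 TSS peak and 1 further peak, the TSS peak was the stronger in 81, the further peak in 67, and 8 were tied.

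Genes with a TSS peak were counted in lists by function, beside 766 of 21951 protein-coding genes (3.49%) that had one, and beside 17.5% as the share of protein-coding genes with any peak that had a TSS peak. Outflow tract and mesenchymal transcription factors had TSS peaks at 17 of 39 genes (43.6%), and these were 65.4% of the list's genes with any peak. Of the genes with any peak, the share with a TSS peak was 52.4% for vascular matrix, 57.1% for immediate early genes, 45.5% for the Hippo pathway and 33.3% for growth factors. It was 26.1% for the TGF-beta and BMP pathways, 25% for myocardin and SRF partners and 21.4% for histone modifying enzymes, all nearer to 17.5%. For ductus regulators, contractile genes, the PR domain family and cell cycle genes it was 50%, but of at most 8 genes each, and it rested on 3 of 7 genes for Notch and 2 of 3 for AP-1. The outflow tract and mesenchymal transcription factors with a TSS peak included Foxc1 (9.37 and 13.7 in the first-listed and second-listed replicates), a forkhead factor of outflow tract development, Zeb2 (8.52 and 12.8), Gata6 (7.71 and 7.92), Meis1 (13.9 and 7.42) and Runx2 (7.17 and 9.54). The score of Foxc1, the highest of these transcription factors, was 352. Vascular matrix genes had TSS peaks at 11 of 29 (37.9%). Those of Col5a2 (13.9 and 14.7) and Col3a1 (21 and 11.8) passed a global IDR of 0.05 and that of Col12a1 (11.3 and 15.7), with a score of 539, just missed it. Lox, which cross-links collagen and elastin, had 10.2 and 17.8, Vcan, a proteoglycan, 6.92 and 8.25, and Col4a1 6.42 and 6.61. The other 5 of the list (Fbn1, Tnc, Thbs1, Col8a1 and Postn) had matched values between 4.04 and 5.84.

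Immediate early genes, which growth factors and serum induce within minutes, had TSS peaks at 8 of 19 (42.1%). The peak of Sgk1, a serum and glucocorticoid induced kinase, had 9.57 and 13, that of Ccn1, a matricellular target of serum and Hippo signaling, 9.06 and 15.7, that of the phosphatase gene Dusp1 7.71 and 10.9, that of Myc 7.17 and 9.54, that of Klf10 9.66 and 6.39, and that of Btg2 6.15 and 7.42. Among AP-1 genes, Fosl2 (7.71 and 8.72) and Atf3 (3.21 and 5.84) of 12 had TSS peaks. In the Hippo pathway, 5 of 18 genes (27.8%) did, namely the coactivator gene Wwtr1, Amotl2, which retains the coactivators in the cytoplasm, the TEAD cofactor genes Vgll3 and Vgll4, and the kinase adaptor gene Mob1a, all with matched −log10 p-values between 4.37 and 6.61. Growth factors and receptors had TSS peaks at 7 of 24 (29.2%), the highest at Pdgfc (7.71 and 10.9) and Fgf7 (7.71 and 7.42), followed among others by Met, Bdnf, Igf1 and Ereg.

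For the TGF-beta and BMP pathways the count was 6 of 31 (19.4%), with the receptor Tgfbr2 (8.52 and 6.61), the signal transducer Smad1, the inhibitors Smad7 and Skil, the ligand subunit Inhba and the target Id3. Notch genes had TSS peaks at 3 of 16, Rbpj, the DNA-binding factor of the pathway (8.75 and 9.10), the ligand Jag1 (7.61 and 7.42) and the target Hes1 (7.17 and 6.61). Of the ductus arteriosus regulators that the study named, 4 of 13 had a TSS peak, Foxc1, Jag1, Edn1 (6.92 and 9.10), which encodes the vasoconstrictor endothelin 1, and Twist1 (5.42 and 8.25). Several were picked by the study from peaks of the same libraries, which makes the count no independent evidence. Smooth muscle contractile and actin genes had TSS peaks at 4 of 24 (16.7%), Cald1 (7.69 and 8.25), Acta2 (7.59 and 7.42), Tpm1 (5.27 and 5.84) and Actb (3.10 and 5.84). The peak of Acta2, which encodes smooth muscle actin, had its summit 17 bp downstream of the TSS at chr19:34254265-34255869 and 2 TEAD motifs near it, although the second-listed replicate had its summit 1009 bp downstream. Myocardin and SRF partners had TSS peaks at 2 of 11, Fhl2 and Elk3, or at 1 of 11 by the basic starts of GENCODE.

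Other lists ran from above the share over all protein-coding genes to below it. Cell cycle genes had TSS peaks at 3 of 21 (14.3%), namely Cdk6, Cdkn2a and Cdkn2b. Genes of the PR domain family had them at 2 of 15 (13.3%), Mecom and Prdm1, with Prdm6 not among them. Both shares were above 3.49% and nearer to that of the contractile list (16.7%). Histone modifying enzymes were at 3 of 32 (9.38%), Smarca2, Ep300 and Hdac5, or at 1 by the basic starts of GENCODE. Hox genes were at 3 of 39 (7.69%), among them Hoxb6 and Hoxa3. Zinc finger genes of the Zfp series were at 10 of 365 (2.74%), or at 4 by the basic starts (1.10%), where all protein-coding genes were at 2.82%. Ribosomal protein genes, which have CpG-rich promoters and are active in all cells, had a TSS peak at 1 of 79 (1.27%), histone genes at 1 of 72 (1.39%), splicing factor genes at 1 of 31, mitochondrial complex I genes at 0 of 46, proteasome genes at 0 of 50 and microRNA genes at 11 of 1172 (0.939%). Over all microRNA genes of the gene set it was 11 of 2202 (0.500%). Few of these genes had a peak of any kind, and of those that did the share with a TSS peak was 14.3% for ribosomal proteins (1 of 7), 16.7% for histones (1 of 6) and 12.5% for splicing factors (1 of 8), near 17.5%. Markers of endothelial, cardiac muscle, glial, neuronal and blood cells had TSS peaks at 0 of 20, where 5 of the 20 had a peak elsewhere. Lists with a count of 0 or 1 are too small to be set apart from the shares over all protein-coding genes. The lists were chosen with results of these data known and the counts carry no test.

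**Figure D5:**
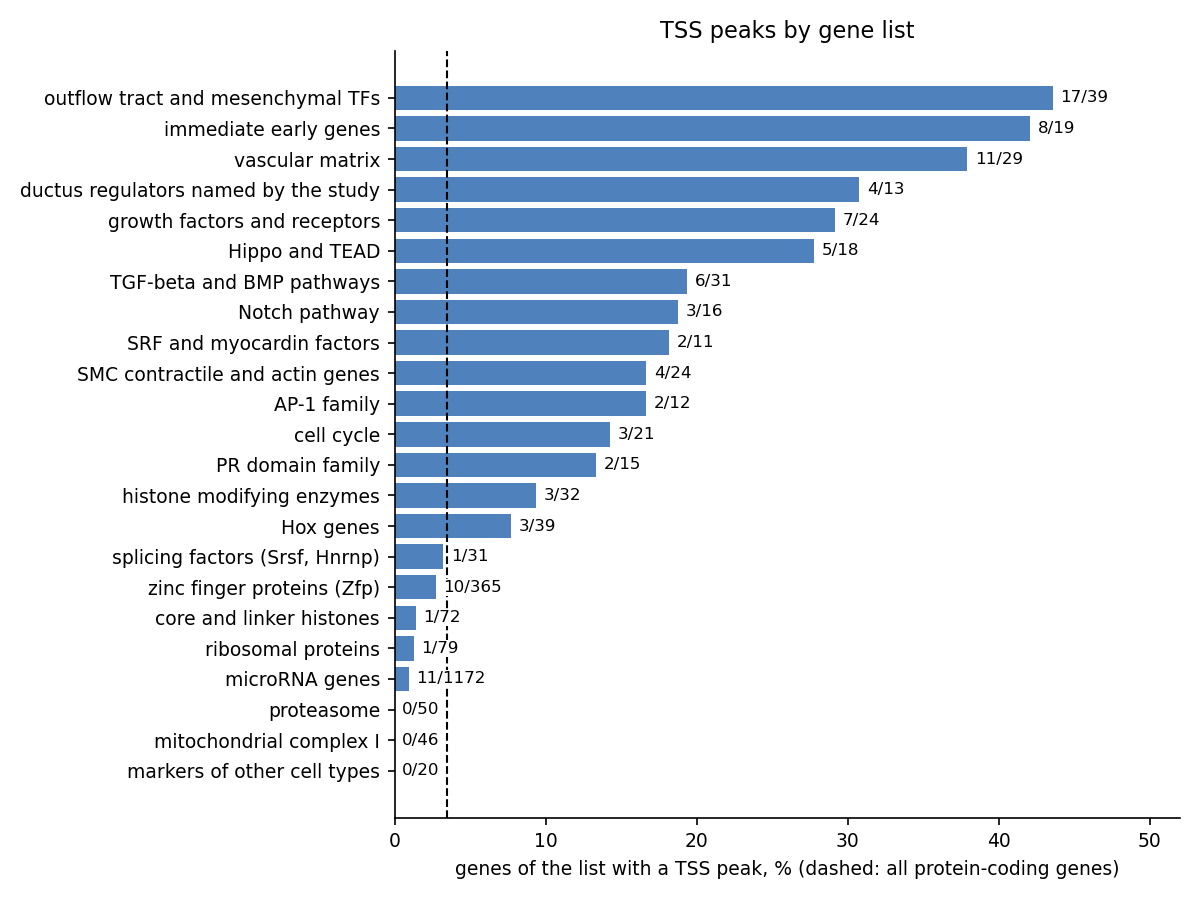
Share of the genes of each list, in percent, with a TSS peak, with the counts beside the bars. The dashed line is the share of all protein-coding genes, 3.49%. The lists of transcription factors, immediate early genes and matrix genes reached 43.6%, 42.1% and 37.9%, and complex I, proteasome and other cell types were at 0. The lists at 0 are too small to be set apart from the dashed line.

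TSS peaks fell on all chromosomes of the list. A TSS peak lay at 7.95% of the protein-coding genes of chromosome 1, 5.99% of those of chromosome 15, 1.33% of those of chromosome 7 and 0.316% of those of the X chromosome (3 of 948 genes). As a share of the peaks of each chromosome, TSS peaks ran from 4.30% on the X chromosome (4 of 93) to 9.33% on chromosome 19 (35 of 375).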

How the data were processed

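ChIP-Seq was measured in 2 PRDM6 ChIP and 2 Input libraries, and the deposited files held 1 list of matched peaks with its annotation. The authors trimmed paired reads, aligned them to mm10 with BWA, called peaks per replicate against the matching input with MACS2, matched replicates by IDR and annotated the peaks. The deposited score is the scaled global IDR, and the deposited −log10 p-values are those of MACS2 per replicate and, as the smaller, for the matched peak. Signal columns held a placeholder and were not used. Tool versions and read totals are not given in the sources used here, so depth is known only through the heights that the p-values kept.

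Peaks of the list were joined to the annotation by coordinates (all 13977 matched). Sequence came from GRCm38, gene models from GENCODE M21 and promoters from RefSeq. Shares of peaks were compared with two-sided Fisher's exact tests, adjusted by Benjamini-Hochberg within 10 motifs or within 6 or 7 other measures, with Wilson and Newcombe 95% intervals, and sides of the TSS with an exact binomial test. The search for motifs, the recovery of heights and the tests were tested on simulated data. Named genes were the 15 highest TSS peaks, those passing a global IDR of 0.01, the 3 widest, up to 6 members of each gene list under 40 genes, and peaks with 3 or more AP-1 motifs or AP-1 with TEAD that passed a global IDR of 0.05, of which there were 0; all others (edge examples, promoters shown, motif pairs, TATA examples, genes with several TSS peaks) were named after their values were seen. Alternatives were IDR limits, other definitions of a TSS peak, width, windows, single replicates and sequence class. Some members that this rule names are not reported here. The members and lists were chosen with earlier results of these data known. SciPy 1.17.1, pysam 0.24.0, matplotlib 3.10.9, pandas 2.3.3 and NumPy 2.4.6 were run under Python 3.11.15.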

Additional observations from a re-analysis of the deposited data

How the results depend on the processing

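Values here are the share in TSS peaks divided by the share in the compared peaks, with unadjusted exact tests; within the TSS class, CpG-rich divided by other. For the main comparisons 180 values under alternatives neither turned direction nor changed side of the threshold (2 of them, the share above the median at both IDR limits, by construction), 35 no longer passed it, 11 newly passed it and 13 turned direction, 8 of these for results that had not passed. With a summit within 250 bp or 500 bp of a TSS, the ratio for a global IDR of at most 0.05 became 0.509 and 0.551 and that for a −log10 p-value above the median 0.840 and 0.844, all past the threshold, as was the latter in peaks of at least median width (0.882) and in the first-listed replicate alone (0.829), while the second-listed alone gave 1.07. When only peaks passing a global IDR of 0.05 were kept, of which 25 were TSS peaks, AP-1 (0.623), TTTCMT (0.917), the GC box (2.93) and CRE (5.87) no longer passed, TEAD turned to 1.73, YY1 to 0, and the CCAAT box passed at 3.35. At 0.01, with 8 TSS peaks, CpG-rich sequence (8.19), AP-1 (0.399) and the GC box (4.09) did not pass, and TEAD (3.07), TTTCMT (1.00), CRE (0) and the CCAAT box (0) turned direction. The CCAAT box also turned in narrower peaks (0.919) and at the summits of the first-listed (0.906) and second-listed (0.873) replicates, and YY1 in wider peaks (0.468) and in other sequence (0.212). Within CpG-rich peaks AP-1 (0.775), TEAD (0.558), TTTCMT (0.980), ETS (1.55), NRF1 (1.24) and CRE (2.32) did not pass, and within other sequence TEAD (0.759), ETS (1.15) and NRF1 (2.76) did not, while the CCAAT box did (1.42). In narrower peaks NRF1 (1.90) and CRE (2.85) did not pass and YY1 did (2.28), and in wider ones ETS did not (2.29). NRF1 did not pass within 50 bp of the summit or at the summit of the first-listed replicate (2.01 for both), where CArG within 50 bp (0.148) and YY1 within 200 bp (1.54) did. Between CpG-rich and other TSS peaks, the share above the median did not differ at principal starts (0.942) and is 1 by construction at both IDR limits. AP-1 and TEAD were at 0 there, the GC box at 7.33 and 7, and TEAD in narrower peaks at 0.826, none past the threshold. The percentage of summits downstream did not pass on the minus strand (51.8), at starts outside the basic set (51.1) or at a global IDR of at most 0.05 (56), was a tie at 0.01 (50) and turned where replicate summits were within 100 bp (49.7). With the TSS of the reference gene models, list counts moved by over 1.5 times for SRF and myocardin factors (2 to 1), histone modifying enzymes (3 to 1), Zfp genes (10 to 4) and all microRNA genes of the gene set (11 to 18). The cause was not tested where fewer peaks alone do not account for the change. Restrictions by sequence class at principal starts and by replicate summits, and another reading of TTTCMT, were chosen after seeing the data.

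No paired analysis was possible because the list holds no values of the Input libraries and names the replicates by order alone. Leaving out a replicate was limited to using the other one alone, since the list holds peaks called in both. Depth is limited, with a median height of 13 and 14 fragments among the TSS peaks whose height could be read back, so a TSS without a peak cannot be called unbound.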
